A study of Rattus norvegicus with 20 samples.

Results

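The microRNAs rno-miR-103-3p and rno-miR-107-3p, called miR-103-3p and miR-107-3p below, are near-identical short RNAs that are made from introns of the pantothenate kinase genes and are known from human cells to repress the message of Dicer, the enzyme that cuts miRNA precursors into mature miRNAs. They are 2 of the 677 rat miRNAs on the array and are read by 4 probes. They were selected on their names and their known target with array values of all 4 groups in view, and which of these values weighed in the choice is not recorded in the sources used here. Their levels are described in germ cells of rats given cyclophosphamide (CPA), an alkylating anticancer drug, and of rats given saline. The series holds 20 one-colour Agilent arrays in 4 groups of 5. These are round spermatids of CPA rats, round spermatids of saline rats, pachytene spermatocytes of CPA rats and pachytene spermatocytes of saline rats. All donors were male Sprague-Dawley rats, gavaged on 6 days a week for 4 weeks with CPA at 6 mg/kg or with saline. The cells were separated by their speed of settling (STA-PUT), an enrichment by size that can leave other cells in a fraction. Neither the rats' ages nor the purity of the fractions is given in the sources used here. Each array is labelled with the number of a rat. Within a treatment, CPA numbers 15 and 16 and saline numbers 16, 25 and 28 occur in both cell types. It is not settled by the labels that an equal number in both is 1 animal. Number 16 occurs on 2 arrays of CPA pachytene spermatocytes, told apart by the year in their rat labels, and they are counted as 2 rats, the earlier 16 and the later 16. The title of the CPA round spermatid array numbered 16 gives no year, so which of these it matches, if either, is not settled.

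A miRNA pairs with target messages mainly through its seed, bases 2 to 8 counted from its 5′ end, and the bound message is silenced or broken down. Because Dicer finishes nearly all miRNAs, miRNAs that repress it sit upstream of the whole class. In the testis, pachytene spermatocytes are in meiosis, with their chromosomes paired and recombining, and round spermatids are the haploid products of meiosis. Dicer loss in germ cells of mice is known to disturb the making of sperm. The arrays measured miRNAs alone, so the Dicer message and protein were not measured here.

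The mature sequences are shown because 1 base is all that separates the pair. They are RefSeq's, on the GRCr8 build, with the seed in capitals.
miR-103-3p: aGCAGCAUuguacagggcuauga
miR-107-3p: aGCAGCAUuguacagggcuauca
They share 22 of 23 bases and the whole seed. The single change is G22C, from miR-103-3p to miR-107-3p, counted from the 5′ end. How far a probe for one also binds the other was not tested.

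The precursors are shown with the mature arm in capitals, since 2 of them give the same miR-103-3p and no probe for the mature RNA can tell their output apart. On GRCr8 the Mir103a1 hairpin lies at chr10:20748474-20748559 on the + strand, within Pank3. The Mir103a2 hairpin lies at chr3:138963227-138963312 on the + strand, within Pank2. The Mir107 hairpin lies at chr1:241750418-241750504 on the - strand, within Pank1. These hosts encode pantothenate kinases, which start the synthesis of coenzyme A.
Mir103a1: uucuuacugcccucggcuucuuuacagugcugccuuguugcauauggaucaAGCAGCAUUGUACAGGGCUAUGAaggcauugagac
Mir103a2: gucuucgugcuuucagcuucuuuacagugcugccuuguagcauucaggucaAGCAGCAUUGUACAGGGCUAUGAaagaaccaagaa
Mir107: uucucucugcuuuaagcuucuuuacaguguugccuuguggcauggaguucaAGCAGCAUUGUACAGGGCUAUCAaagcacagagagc
In all 3 hairpins the mature arm spans positions 52 to 74, on the 3′ side.

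Feature Extraction, the scanner's software, detected between 181 and 281 miRNAs per array. Between 18.9% and 31.4% of spots were well above background, and no spot was saturated. The germ cell markers miR-34b-5p, miR-34c-5p and miR-449a-5p were detected on every array, 3 of 3 in each group. Arrays lay on 3 slides, and slide 3 held only round spermatids, 1 CPA and 3 saline arrays. Precision is limited by the 5 arrays in each group.

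Both members were measured far above background in every group. Each has 2 probes of 10 spots, and all 100 spots of each miRNA in each group were well above background. The median SD between the 10 spots of a probe on an array was between 0.08 and 0.11 on the log2 scale across the 4 probes. The opposite arms of the same hairpins were at background. Feature Extraction detected miR-103-1-5p, miR-103-2-5p and miR-107-5p on 0 of 5 arrays in each group, and at most 1 of 100 spots of any of them in a group was well above background.

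The values below are log2 signals of the brighter probe of each miRNA, scaled between arrays by the 75th percentile of the spots well above background on all arrays. Levels read by probes of different miRNAs are not comparable. miR-103-3p stood at 7.39, 7.47, 7.45, 7.19 and 7.43 in round spermatids of CPA rats 14, 15, 16, 25 and 26. In round spermatids of saline rats 15, 16, 17, 25 and 28 it stood at 7.36, 7.25, 7.37, 7.54 and 7.31. The ranges of the 2 treatments overlapped, with CPA rat 25 the lowest of these 10 arrays and saline rat 25 the highest. In pachytene spermatocytes miR-103-3p stood at 7.78, 7.91, 7.75, 7.86 and 8.04 in CPA rats 7, 15, the earlier 16, the later 16 and 29. In saline rats 13, 16, 25, 26 and 28 it stood at 7.97, 7.71, 7.81, 7.95 and 7.72. These ranges overlapped too, and every pachytene array lay above every round spermatid array, the nearest values being 7.54 in round spermatids and 7.71 in pachytene spermatocytes.

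miR-107-3p stood at 7.50, 7.43, 7.49, 7.35 and 7.77 in round spermatids of CPA rats 14, 15, 16, 25 and 26. In round spermatids of saline rats 15, 16, 17, 25 and 28 it stood at 7.39, 7.48, 7.79, 7.72 and 7.48. The treatments overlapped, and the 3 highest of these 10 arrays were on slide 3. In pachytene spermatocytes it stood at 8.18, 8.30, 8.40, 8.49 and 8.69 in CPA rats 7, 15, the earlier 16, the later 16 and 29. In saline rats 13, 16, 25, 26 and 28 it stood at 8.48, 8.18, 8.45, 8.51 and 8.26. Again the treatments overlapped while the cell types did not, with 7.79 the highest in round spermatids and 8.18 the lowest in pachytene spermatocytes.

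**Figure D1:**
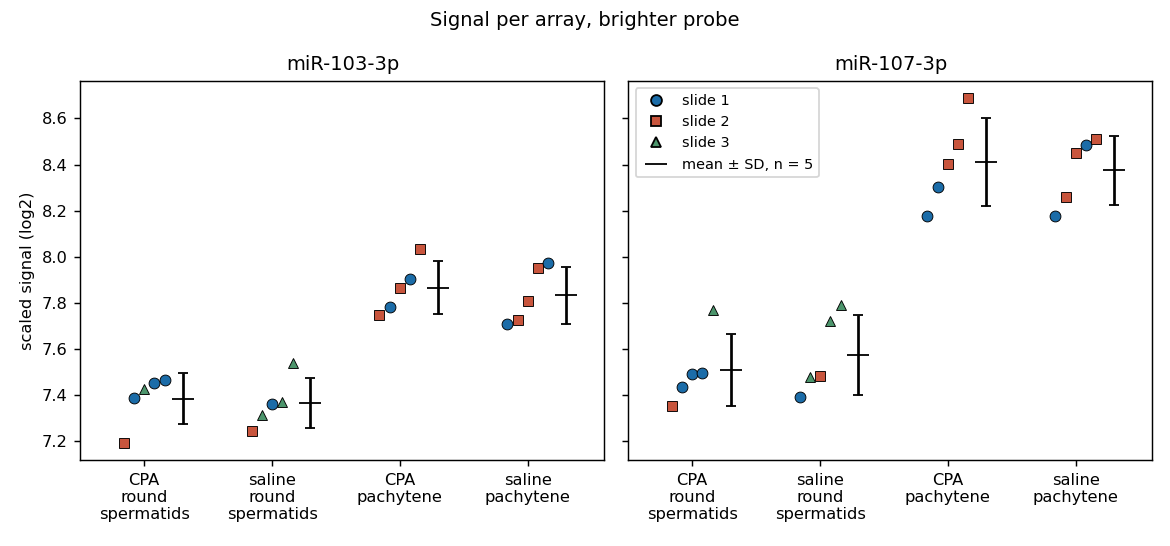
Scaled log2 signal of the brighter probe of miR-103-3p (left) and miR-107-3p (right) on each array, by group, with marker shape and colour giving the slide. Bars are mean ± SD over 5 arrays. For both miRNAs every round spermatid array lies below every pachytene array, and CPA and saline arrays of a cell type overlap.

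Between the cell types, both members were lower in round spermatids. Because the pair was chosen with these values in view, the differences between cell types are given as a description, with no test. miR-103-3p averaged 7.39 ± 0.11 in round spermatids and 7.87 ± 0.11 in pachytene spermatocytes of CPA rats (SD, n = 5 each). In saline rats it averaged 7.37 ± 0.11 in round spermatids and 7.83 ± 0.12 in pachytene spermatocytes (SD, n = 5 each). The difference was -0.48 ± 0.07 (SE; 95% interval -0.64 to -0.32) in CPA rats and -0.47 ± 0.07 (-0.62 to -0.31) in saline rats. On the linear scale the round spermatid level was 0.716 of the pachytene level in CPA rats and 0.723 of it in saline rats.

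The difference of miR-107-3p was larger in both treatments. It averaged 7.51 ± 0.16 in round spermatids and 8.41 ± 0.19 in pachytene spermatocytes of CPA rats, and 7.57 ± 0.17 in round spermatids and 8.38 ± 0.15 in pachytene spermatocytes of saline rats (SD, n = 5 each). The difference was -0.90 ± 0.11 (SE; 95% interval -1.12 to -0.68) in CPA rats and -0.80 ± 0.11 (-1.03 to -0.58) in saline rats, or 0.535 and 0.573 of the pachytene level. In samples of bulk RNA, fewer cells of a type and less of an RNA per cell cannot be told apart. Feature Extraction's own signal per miRNA, which draws on both probes, gave differences of -0.53 in CPA rats and -0.50 in saline rats for miR-103-3p. For miR-107-3p it gave -0.99 in CPA rats and -0.88 in saline rats.

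Such differences were common among the 217 tested miRNAs, those that every array of some group detected. By limma's adjusted p, 51.6% of them differed between the cell types in CPA rats and 47.5% in saline rats. Lower in round spermatids were 22.6% of them in CPA rats and 21.7% in saline rats. Ordered from the most negative difference, miR-107-3p was number 20 in CPA rats and 19 in saline rats, and miR-103-3p was number 36 and 41. The median difference over the 217 miRNAs was 0.06 in CPA rats and 0.02 in saline rats. The split of calls depended on the scaling, with 63 higher and 49 lower in CPA round spermatids and 56 higher and 47 lower in saline round spermatids here, and 16 higher and 88 lower, and 4 higher and 157 lower, when scaled on labelling spike-ins.

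**Figure D2:**
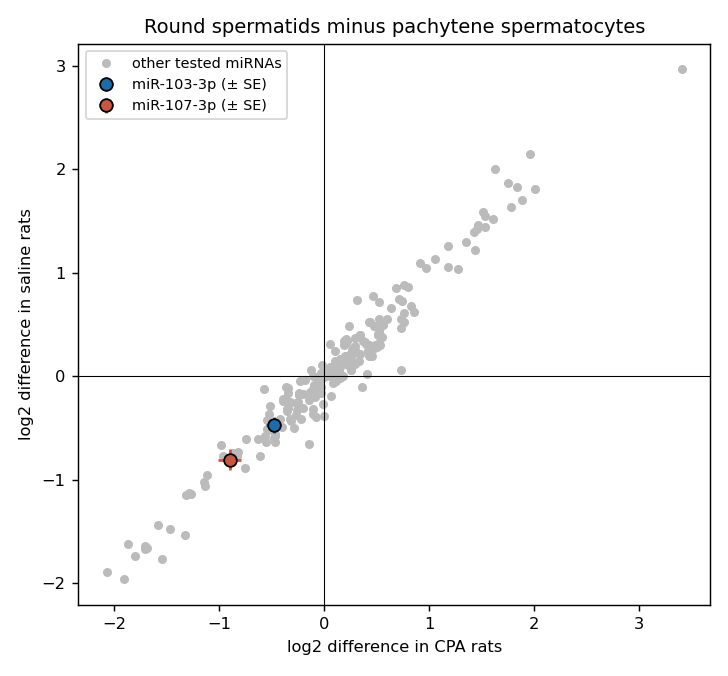
Difference between round spermatids and pachytene spermatocytes (log2) in CPA rats, on the horizontal axis, and in saline rats, on the vertical axis, for the 217 tested miRNAs. The pair is coloured, with bars for the SE, partly hidden by the symbols. miR-103-3p lies at -0.48 and -0.47 and miR-107-3p at -0.90 and -0.80, both inside the cloud of miRNAs lower in round spermatids.

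The second probe of each miRNA was dimmer and gave the same direction. The probe A_26_P00001305 for miR-103-3p averaged 6.76 ± 0.08 in CPA round spermatids and 7.37 ± 0.13 in CPA pachytene spermatocytes (SD, n = 5 each). In saline rats it averaged 6.76 ± 0.11 in round spermatids and 7.32 ± 0.15 in pachytene spermatocytes. The probe A_26_P00001309 for miR-107-3p averaged 6.25 ± 0.22 in CPA round spermatids and 7.44 ± 0.29 in CPA pachytene spermatocytes (SD, n = 5 each). In saline rats it averaged 6.37 ± 0.29 in round spermatids and 7.42 ± 0.21 in pachytene spermatocytes. The differences were -0.61 in CPA rats and -0.55 in saline rats for miR-103-3p, and -1.19 in CPA rats and -1.04 in saline rats for miR-107-3p. So the dimmer probes gave larger differences than the brighter ones in all 4 cases.

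**Figure D3:**
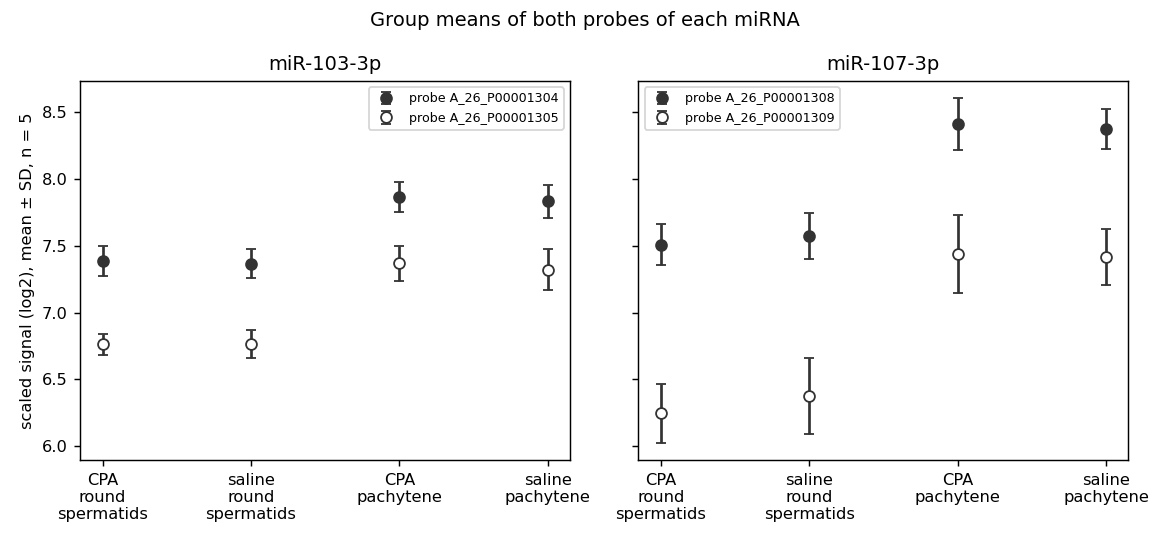
Group means of both probes of miR-103-3p (left) and miR-107-3p (right), as scaled log2 signal, with bars for the SD over 5 arrays. Filled circles are the brighter probe and open circles the dimmer one. All 4 probes have lower means in round spermatids of both treatments than in pachytene spermatocytes.

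The difference between cell types had the same sign within each slide that held both. On slide 1 it was -0.41 in CPA rats and -0.48 in saline rats for miR-103-3p, and -0.77 in CPA rats and -0.94 in saline rats for miR-107-3p. On slide 2, where each treatment has 1 round spermatid array, it was -0.69 in CPA rats and -0.58 in saline rats for miR-103-3p, and -1.17 in CPA rats and -0.92 in saline rats for miR-107-3p. With the slide as a block it was -0.52 in CPA rats and -0.53 in saline rats for miR-103-3p, and -0.92 in CPA rats and -0.95 in saline rats for miR-107-3p. The size depended on the scaling. Without scaling the differences of miR-103-3p were -0.89 in CPA rats and -0.94 in saline rats, and those of miR-107-3p -1.31 and -1.28. Scaled on the labelling spike-ins, RNAs added in known amount, they were -1.20 and -1.70 for miR-103-3p and -1.62 and -2.04 for miR-107-3p. That scaling shifted the median of all 217 miRNAs to -0.50 in CPA rats and -1.04 in saline rats, so that relative to it the pair was still lower.

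Markers of other cells moved with the cell type. The summed scaled signal of 4 smooth muscle and mesenchyme miRNAs, miR-143-3p, miR-145-5p, miR-199a-3p and miR-214-3p, ranged over arrays between 1877 and 3683 in CPA round spermatids and between 446 and 837 in CPA pachytene spermatocytes. In saline rats it ranged between 2256 and 3448 in round spermatids and between 577 and 1205 in pachytene spermatocytes, and all 4 were detected on every array. The sum of 4 blood cell miRNAs was also higher in round spermatids, at 134 to 187 there and 63.3 to 108.1 in pachytene spermatocytes of CPA rats, and at 142 to 207 and 83.2 to 108.9 in those of saline rats. Of these 4, miR-223-3p differed by 1.96 in CPA rats and 2.15 in saline rats and miR-142-3p by 0.76 and 0.53, while miR-150-5p was estimated at -0.40 and -0.24. miR-451-5p, of red blood cells, was not tested, since it was not detected throughout any group. It was detected on 1 of 5 saline round spermatid arrays, and its brighter probe was at the floor on every array.

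Markers of 3 further cell types ran the way of the pair, some of them with overlapping ranges. The spermatogonial miR-21-5p, miR-221-3p and miR-222-3p summed to 576 to 642 in round spermatids and 615 to 812 in pachytene spermatocytes of CPA rats. In saline rats they summed to 532 to 620 and 701 to 788. Most of this sum was signal of miR-21-5p, which differed by only -0.09 in CPA rats and -0.20 in saline rats. miR-221-3p differed by -1.71 and -1.64 and miR-222-3p by -1.59 and -1.44. In round spermatids miR-222-3p was detected on 1 of 5 arrays of each treatment. The Sertoli cell markers miR-202-3p and miR-202-5p summed to 23.8 to 39.7 in round spermatids and 85.9 to 118.9 in pachytene spermatocytes of CPA rats, and to 17.1 to 43.2 and 85.6 to 114.8 in those of saline rats, with 1 of the 2 detected throughout each group. The endothelial markers miR-126a-3p and miR-126a-5p summed to 43.8 to 71.8 in round spermatids and 86.3 to 196 in pachytene spermatocytes of CPA rats, and to 48.7 to 118.2 and 64.8 to 285.4 in those of saline rats. In saline rats the endothelial ranges overlapped. miR-126a-3p differed by -0.83 in CPA rats and -0.73 in saline rats, and miR-126a-5p by -0.08 and -0.39. In round spermatids miR-126a-5p was at the floor, detected on 0 of 5 CPA arrays and 1 of 5 saline arrays. The part of any of these cell types in the differences of the pair was not tested.

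The question posed by the drug treatment is whether CPA altered the pair in either cell type, and no difference was detected. In pachytene spermatocytes the CPA minus saline difference of miR-103-3p was 0.03 ± 0.07 (SE; 95% interval -0.12 to 0.19, limma adjusted p = 1). That of miR-107-3p was 0.04 ± 0.11 (-0.19 to 0.26, limma adjusted p = 1). In round spermatids miR-103-3p differed by 0.02 ± 0.07 (-0.14 to 0.18, limma adjusted p = 1). The estimate for miR-107-3p there was -0.06 ± 0.11 (-0.29 to 0.16, limma adjusted p = 0.918). On the linear scale the intervals of miR-107-3p, the wider ones, allow a level between 0.820 and 1.12 times that of saline rats in round spermatids and between 0.879 and 1.20 times in pachytene spermatocytes. With 5 arrays per group, changes within these intervals are not excluded, and the intervals are not a limit of detection.

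Within slides the CPA minus saline differences varied in sign. In pachytene spermatocytes they were 0.002 on slide 1 and 0.05 on slide 2 for miR-103-3p, and -0.09 and 0.12 for miR-107-3p. In round spermatids they were 0.07 on slide 1, -0.05 on slide 2 and 0.02 on slide 3 for miR-103-3p, and 0.08, -0.13 and 0.11 for miR-107-3p, where at least 1 treatment had a single array on each slide. With the slide as a block the round spermatid differences were 0.04 for miR-103-3p and 0.06 for miR-107-3p, and the limma adjusted p was 0.911 for both.

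By limma 0 of the 217 miRNAs (0%) passed the threshold in either cell type. At an unadjusted p under 0.05 there was 1 in pachytene spermatocytes and there were 4 in round spermatids. No difference in the response of the pair between the cell types was detected either. The CPA effect in round spermatids minus that in pachytene spermatocytes was -0.01 ± 0.11 for miR-103-3p (SE; 95% interval -0.24 to 0.21) and -0.10 ± 0.15 for miR-107-3p (-0.41 to 0.21), each with a limma adjusted p of 1. For that comparison as well 0 of the 217 miRNAs (0%) passed, with 1 at an unadjusted p under 0.05. The sign of these small differences changed with scaling, slide or a single array, and limma's adjusted p for the pair stayed between 0.443 and 1 over all the alternatives other than leaving out an array.

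**Figure D4:**
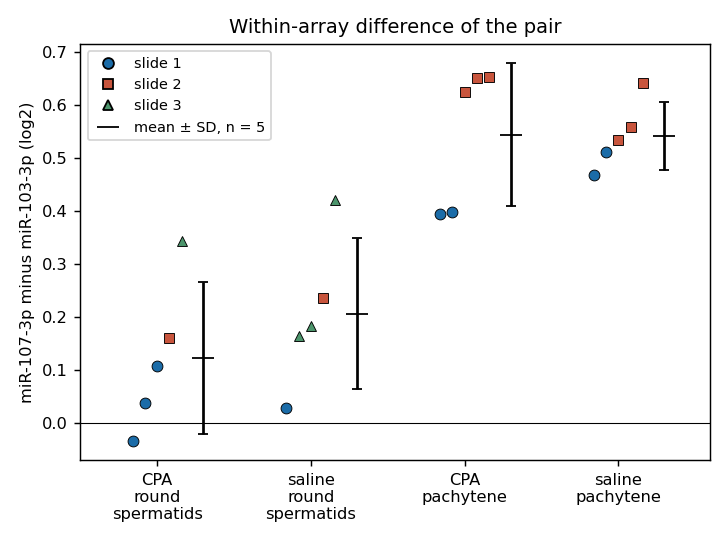
miR-107-3p minus miR-103-3p on the same array (log2 signals of the brighter probes), by group, with marker shape and colour giving the slide and bars for mean ± SD over 5 arrays. The values are lower in round spermatids than in pachytene spermatocytes of the same treatment, and within a cell type they are lowest on slide 1.

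Setting the pair against each other within an array removes the scaling between arrays. It shows only whether both changed alike, since the 2 probes differ in how they bind. The log2 signal of miR-107-3p minus that of miR-103-3p averaged 0.12 ± 0.14 in CPA round spermatids and 0.54 ± 0.14 in CPA pachytene spermatocytes (SD, n = 5 each). In saline rats it averaged 0.21 ± 0.14 in round spermatids and 0.54 ± 0.06 in pachytene spermatocytes. The values ranged between -0.03 and 0.34 in CPA round spermatids and between 0.40 and 0.65 in CPA pachytene spermatocytes. In saline rats they ranged between 0.03 and 0.42 in round spermatids and between 0.47 and 0.64 in pachytene spermatocytes. So the ranges did not overlap within a treatment, and the difference between cell types was -0.42 ± 0.09 in CPA rats and -0.34 ± 0.07 in saline rats (SE), again as a description. The brighter probe's signal of miR-107-3p was thus lower in round spermatids by a wider margin than that of miR-103-3p. Whether this holds for the RNAs themselves was not tested. The slide moved with the within-array value. In round spermatids its mean was 0.04 on slide 1 (4 arrays), 0.20 on slide 2 (2 arrays) and 0.28 on slide 3 (4 arrays), and in pachytene spermatocytes it was 0.44 on slide 1 (4 arrays) and 0.61 on slide 2 (6 arrays). Within slide 1 the difference between cell types was -0.36 in CPA rats and -0.46 in saline rats, and within slide 2 it was -0.48 and -0.34.

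CPA and saline rats did not differ in this within-array value beyond the spread between arrays. The CPA minus saline difference was 0.002 ± 0.067 (SE) in pachytene spermatocytes, with p = 0.968 by an exact two-sided permutation test over the 252 splits of 5 arrays against 5. It was -0.08 ± 0.09 in round spermatids, with p = 0.381 by the same exact test. The smallest p this design allows is 0.00794. Slide make-up differed between the treatments, with 3 of 5 CPA round spermatid arrays on slide 1 and 3 of 5 saline ones on slide 3. In round spermatids the CPA minus saline difference was 0.0092 on slide 1, -0.075 on slide 2 and 0.087 on slide 3, and with the slide as a block it was 0.017 (p = 0.844, exact permutation within slides, 32 splits). In pachytene spermatocytes it was -0.093 on slide 1 and 0.065 on slide 2, and 0.0020 with the slide as a block (p = 0.933, exact permutation within slides, 120 splits). The smallest p these tests within slides allow is 0.0313 in round spermatids and 0.0167 in pachytene spermatocytes.

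Other miRNAs carry part of the pair's seed. The group of miR-15 and miR-107 is named for a shared stretch near the 5′ end, and its miR-15 and miR-16 branch is best known for restraining the cell cycle. The sequences below show where the shared stretch sits, with the seed, bases 2 to 8, in capitals.
miR-15b-5p: uAGCAGCAcaucaugguuuaca
miR-16-5p: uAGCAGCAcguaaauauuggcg
miR-195-5p: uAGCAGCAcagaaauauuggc
miR-497-5p: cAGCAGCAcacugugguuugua
miR-322-5p: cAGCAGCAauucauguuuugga
These seeds hold the first 7 bases of miR-103-3p and miR-107-3p, set 1 base further in, so the 2 branches share the stretch but not the exact seed.

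The branch with the shifted seed did not follow the pair between cell types. Of a list of 7, 5 were tested, and 4 of these were higher in round spermatids by limma's adjusted p in each treatment and 0 lower, against 29.0% of all tested miRNAs higher in CPA rats and 25.8% in saline rats. The median difference of the 5 was 0.76 in CPA rats and 0.61 in saline rats. The list was written with earlier results of these data known, so its calls and p-values between cell types are given as a description. miR-497-5p and miR-195-5p, which lie close together on chromosome 10, rose most of the 5 in round spermatids. miR-497-5p differed by 1.89 ± 0.18 in CPA rats (SE; limma adjusted p = 1.7e-07) and by 1.70 ± 0.18 in saline rats (limma adjusted p = 3.4e-07). miR-195-5p differed by 1.61 ± 0.16 in CPA rats (limma adjusted p = 1.7e-07) and by 1.52 ± 0.16 in saline rats (limma adjusted p = 2.6e-07). miR-15b-5p and miR-16-5p, neighbours on chromosome 2, differed by 0.76 and 0.51 in CPA rats (limma adjusted p = 0.0011 and 0.0030) and by 0.61 and 0.40 in saline rats (0.0061 and 0.017). miR-322-5p was estimated at -0.35 ± 0.16 in CPA rats and -0.11 ± 0.16 in saline rats (limma adjusted p = 0.078 and 0.586). With spike-in scaling the list's median was 0.04 in CPA rats and -0.62 in saline rats, against medians of -0.50 and -1.04 over all 217 miRNAs. In the drug comparisons 0 of the 5 passed, as did 0% of all 217 tested, with medians of -0.10 in pachytene spermatocytes and -0.07 in round spermatids.

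The let-7 family, with its relative miR-98-5p, is also reported to repress Dicer, in human cells, and is best known for marking differentiated cells. Of its 8 listed members all were tested. In CPA rats 3 were lower in round spermatids by limma's adjusted p and 0 higher, and in saline rats 2 were lower and 0 higher, where 22.6% of all tested miRNAs were lower in CPA rats and 21.7% in saline rats. The list's median difference was -0.08 in CPA rats and -0.05 in saline rats. let-7b-5p fell in round spermatids by 0.55 in CPA rats and by 0.51 in saline rats (limma adjusted p = 0.00051 and 0.0011). let-7c-5p fell there by 0.36 in CPA rats and by 0.32 in saline rats (limma adjusted p = 0.017 and 0.034). miR-98-5p fell by 0.52 in CPA rats (limma adjusted p = 0.028) and was estimated at -0.29 ± 0.19 in saline rats (limma adjusted p = 0.229). let-7i-5p was estimated at 0.12 in CPA rats and 0.10 in saline rats, and let-7d-5p at -0.09 and -0.08, neither past the threshold. In the drug comparisons 0 of the 8 passed, as did 0% of all tested miRNAs, with medians of -0.05 in pachytene spermatocytes and -0.09 in round spermatids. Both lists were written with earlier results of these data known. The let-7 members named here were those with the largest absolute difference between cell types in saline rats. So the calls and p-values between cell types are a description for this list as well.

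**Figure D5:**
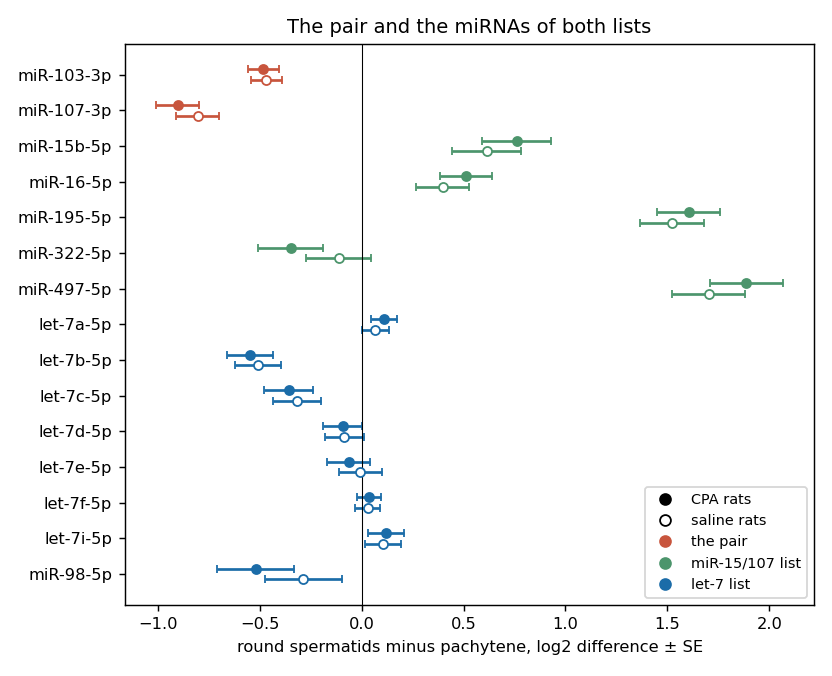
Difference between round spermatids and pachytene spermatocytes (log2 ± SE) for the pair, for the 5 tested miRNAs of the list with the shifted seed and for the 8 of the let-7 list. Filled circles are CPA rats and open circles saline rats. The pair lies left of 0, between -0.90 and -0.47, while 4 of the 5 miRNAs with the shifted seed lie to the right of 0.

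The miRNAs whose pattern was most like that of the pair were found by the root mean square difference between log2 values over the 20 arrays, each miRNA centred on its own mean. For miR-103-3p the nearest 5 of 216 were miR-547-5p at 0.09, miR-30a-5p at 0.11, miR-741-3p at 0.12, miR-463-3p at 0.13 and miR-743a-5p at 0.13, beside a median of 0.41 over all. Of these, 4 lie on chromosome X in GRCr8, as do 40 (20.4%) of the 196 tested miRNAs with a position in that table. miR-547-5p was held at the signal floor on 9 of the 20 arrays, so its likeness rests in part on the floor. The nearest measured above the floor on all arrays was miR-30a-5p, which differed by -0.42 ± 0.06 in CPA rats and -0.41 ± 0.06 in saline rats (SE) between round spermatids and pachytene spermatocytes.

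For miR-107-3p the nearest 5 were miR-471-3p at 0.16, miR-100-5p at 0.18, miR-204-5p at 0.18, miR-181a-5p at 0.19 and miR-463-3p at 0.19, beside a median of 0.55. Between round spermatids and pachytene spermatocytes miR-100-5p differed by -1.14 ± 0.13 in CPA rats and -1.05 ± 0.13 in saline rats (SE), and miR-204-5p by -1.12 ± 0.13 and -0.95 ± 0.13. The pair were not each other's nearest: at 0.22, miR-103-3p was number 8 in the order for miR-107-3p, and miR-107-3p number 24 in that for miR-103-3p. miR-463-3p, an X-linked miRNA of the testis, stood among the nearest 5 of both. Of the nearest 5 of miR-107-3p, 2 lie on chromosome X.

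The authors' deposited table gives its own log2 values for both miRNAs under names that give no arm, with the median of each row at 0. They followed the scanner values of miR-103-3p and miR-107-3p at r = 0.967 and r = 0.988 over the 20 arrays, as a description of shared arrays. In the authors' deposited table the median for miR-103-3p was -0.22 in CPA round spermatids and 0.32 in CPA pachytene spermatocytes, and -0.26 and 0.37 in saline rats. For miR-107-3p the medians in the authors' deposited table were -0.67 in CPA round spermatids and 0.68 in CPA pachytene spermatocytes, and -0.38 and 0.49 in saline rats. In the authors' deposited table, too, no round spermatid array reached the level of a pachytene array for either miRNA.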

How the data were processed

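The authors deposited 1 scanner file per array. The authors made its spot intensity values, on a linear scale and after background subtraction, with the Agilent software Feature Extraction, version 11.5.1.1, which both the file headers and the submitters' processing notes name. They were not scaled between arrays. RNA (100 ng) was labelled with Cy3 per the labels' protocols. The authors also deposited a table of log2 values whose normalization is not given in the sources used here. It was used as an alternative. Its scale was read from its values, each miRNA is centred on 0, its column medians lie between -0.12 and 0.40, and its direction follows the scanner values.

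Processed signals of the 13540 probe spots were scaled so that the 75th percentile of the 2176 spots well above background on all arrays was equal between arrays, with a floor of 12.17 set before log2. Between 379 and 635 outlier spots per array were left out. Spots of a probe were averaged and the probe with the brightest mean stood for its miRNA. The file of CPA round spermatids of rat 14 holds signals rounded to 3 significant digits. The 217 miRNAs that every array of some group detected were tested, and 460 were not. One limma model of 4 group means (limma 3.58.1 in R 4.3.3, 16 residual degrees of freedom) was tested on simulated data first. It gave every main difference except the within-array ones, and its p-values were adjusted over the 217 by Benjamini-Hochberg at a threshold of 0.05. The within-array ones are plain differences between group means, with the SE taken from each group's own spread. Python 3.11.15 drew the figures and ran the permutation tests.

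The pair and the lists were chosen with earlier results of these data known. Named besides the pair are the opposite arms, the 5 miRNAs of each list with the largest absolute difference between cell types in saline rats, the 5 miRNAs most like each member, and the cell type markers. Arrays of a group are counted as separate rats, the pair numbered 16 among CPA pachytene arrays included since their rat labels differ, so p-values measure the spread between rats only as far as that holds. All names of the pair, and all but miR-15a-5p and miR-503-5p of both lists, led to tested miRNAs. Of the 7 sequences looked for under the names of the first list, 6 matched RefSeq's table. For the normexp alternative the median spot signal was used with the median background.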

Additional observations from a re-analysis of the deposited data

Results flagged for a closer look

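On the dimmer probe of miR-103-3p, A_26_P00001305, CPA pachytene rat 29 stood apart from the other 4 arrays of its group. Its log2 signal was 7.60, and the nearest other array stood at 7.35. The gap took up 0.724 of the group's range, just over the limit of 0.71 for 5 arrays (Dixon). Chance alone flags about 1 in 20 groups, and 20 sets of group values were looked at. The same array was also the highest of its group on the brighter probes of miR-103-3p and miR-107-3p, at 8.04 and 8.69.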

How the results depend on the processing

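Over 21 alternatives each, leaving out single arrays aside, the differences between round spermatids and pachytene spermatocytes stayed below 0 for both members, furthest from 0 with spike-in scaling and nearest to it after normexp. For miR-103-3p in CPA and saline rats they were -0.69 and -0.71 with the percentile taken over all probes, -0.83 and -0.71 scaled on the total signal, -0.37 and -0.27 after normexp, and -0.61 and -0.62 in the authors' deposited table. For miR-107-3p they were -1.11 and -1.05, -1.25 and -1.05, -0.70 and -0.60, and -1.10 for CPA rats in that table. Unscaled and spike-in values, the dimmer probes' and those of slide 2 stand in the report (miR-103-3p -0.89, -0.94, -1.20, -1.70, -0.61, -0.69, miR-107-3p -1.31, -1.28, -1.62, -2.04, -1.19, -1.04, -1.17). Leaving out 1 array at a time gave, for miR-103-3p, -0.51 to -0.43 in CPA rats and -0.51 to -0.43 in saline rats, and for miR-107-3p -0.97 to -0.83 and -0.86 to -0.76. The CPA minus saline differences, none past limma's threshold in any alternative, changed sign often. In pachytene spermatocytes miR-103-3p turned to -0.025 with all probes, -0.13 unscaled, -0.30 with spike-ins, -0.050 in the authors' table, and miR-107-3p to -0.023 with all probes, -0.13 unscaled, -0.30 with spike-ins, -0.090 within slide 1. In round spermatids miR-103-3p turned to -0.11 on total signal, -0.077 unscaled, -0.029 after normexp, -0.0013 on its dimmer probe, -0.052 within slide 2, -0.039 in the authors' table, and miR-107-3p to 0.12 with spike-ins, 0.060 with the slide as a blocking term, 0.082 and 0.11 in slides 1 and 3 alone, 0.043 with scan day as a block. The difference of the CPA effects turned, for miR-103-3p, to 0.026 with all probes, 0.0062 after quantile normalization, 0.054 unscaled, 0.50 with spike-ins, 0.0090 with slide as a block, 0.071 within slide 1, 0.018 with scan day as a block, 0.011 in the authors' table, and for miR-107-3p to 0.42 with spike-ins, 0.024 with slide as a block, 0.17 within slide 1 and 0.0069 with scan day as a block. Leaving out single arrays gave -0.0086 to 0.069 for miR-103-3p and -0.033 to 0.094 for miR-107-3p in pachytene spermatocytes, -0.011 to 0.067 and -0.13 to -0.0097 in round spermatids, and -0.050 to 0.033 and -0.16 to -0.031 for the difference of effects. Within a cell type the sign turned without CPA pachytene rat 29 (both members), saline pachytene rat 16 (miR-107-3p), CPA round spermatid rat 15 or saline round spermatid rat 16 (miR-103-3p), and for the difference of effects of miR-103-3p without CPA pachytene rat 29, saline pachytene rats 16 or 28, CPA round spermatid rat 25 or saline round spermatid rat 25. The within-array difference between CPA and saline pachytene spermatocytes turned to -0.035 after normexp, -0.013 with both probes averaged and -0.093 within slide 1, and ranged -0.025 to 0.039 without single arrays. In round spermatids it turned to 0.0092 within slide 1, 0.087 within slide 3 and 0.017 with slide as a block, and ranged -0.14 to -0.030 without single arrays, and between cell types -0.48 to -0.38 in CPA rats and -0.39 to -0.29 in saline rats, with -0.46 in saline rats within slide 1. Counts of called miRNAs moved as well. Against 0 in the main setting, 31 were called between CPA and saline round spermatids within slide 2 (1 array each, with the spread taken from the other groups) and 1 within slide 3, and 28 for the difference of effects within slide 2. Neither member was among them. Between cell types the count in CPA rats was 73 unscaled, 39 after normexp and 72 within slide 1, and in saline rats 161 with spike-ins, 27 after normexp and 54 within slide 1, and without single arrays it was 98 to 114 in CPA rats and 95 to 113 in saline rats. Of the called miRNAs, 63 were higher and 49 lower in CPA round spermatids and 56 and 47 in saline ones, against 37 and 74, and 36 and 76, with the percentile over all probes, 33 and 90, and 40 and 73, on total signal, 48 and 61, and 40 and 61, after quantile normalization, 22 and 51, and 21 and 68, unscaled, and 16 and 88, and 4 and 157, with spike-ins. Unscaled, the median of all 217 was -0.23 in CPA rats and -0.37 in saline rats, on total signal -0.20 and -0.18, with all probes -0.07 and -0.16, and after normexp -0.07 and 0.39. For CPA against saline it was -0.13 unscaled in pachytene spermatocytes, with spike-ins -0.30 there and 0.16 in round spermatids, and after normexp 0.32 and -0.16. A further alternative took the bare rat number as a block, which joins CPA and saline rats that share only a number. With it the values of miR-103-3p and miR-107-3p between cell types were -0.50 and -0.93 in CPA rats, where 32 miRNAs were called. In saline rats these values were -0.42 and -0.74. The CPA difference of miR-103-3p in round spermatids was -0.026, which is not a difference within rats. Deviations from the group means correlated at -0.29 to 0.16 over 4 same-numbered pairs of arrays within a treatment. These were 1 pair of CPA and 3 pairs of saline rats. Between arrays of equal number but unlike treatment, so of different rats, they correlated at -0.31 to 0.61. The CPA pachytene arrays numbered 16, whose labels carry a year, were left out of both sets of pairs. Such correlations cannot show whether an equal number is 1 animal. The main model left the arrays unpaired, and a pairing within rats stays unsettled. The medians of the lists followed the scaling. For the miRNAs with the shifted seed the difference between cell types was, in CPA rats, 0.41 on total signal, 0.42 after quantile normalization, 0.35 unscaled, 0.044 with spike-ins, and in saline rats 0.29 after quantile normalization, 0.14 unscaled, -0.62 with spike-ins. Its CPA difference in pachytene spermatocytes was -0.43 with spike-ins, and the difference of effects 0.63 with spike-ins and -0.22 after normexp. For the let-7 list the difference between cell types was, in CPA rats, -0.28 with all probes, -0.43 on total signal, -0.24 after quantile normalization, -0.48 unscaled, -0.79 with spike-ins, and in saline rats -0.29 with all probes, -0.29 on total signal, -0.26 after quantile normalization, -0.52 unscaled, -1.28 with spike-ins and 0.0043 with probes averaged. Its CPA difference was -0.21 unscaled and -0.38 with spike-ins in pachytene spermatocytes, 0.094 with spike-ins in round spermatids, and 0.49 with spike-ins for the difference of effects. The causes of these shifts were not tested. Added after the data were seen were the list medians under all-probe, unscaled, spike-in and normexp settings, Feature Extraction's signal per miRNA, all alternatives of the within-array difference between cell types, and the slide alternatives of that between treatments. Within slide 3 no comparison between cell types could be made, since it held round spermatids alone.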
